A study of Homo sapiens with 6 samples.

Results

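The integrated stress response was followed through 10 of its regulators in KYSE150 cells that carried a hairpin against the lncRNA AC007128.1 or a control hairpin. The genes were named from what is known of the pathway, when earlier results of these data were already known: the transcription factors ATF4, DDIT3 (the gene of CHOP), ATF3, ATF5 and CEBPB, and the feedback and effector genes TRIB3, CHAC1, SESN2, DDIT4 and PPP1R15A. Each was matched by its Ensembl identifier, so the 10 are among 67140 identifiers in the count table. KYSE150 is an established human line of esophageal squamous cell carcinoma (ESCC), grown in RPMI with fetal bovine serum. RNA was sequenced from 3 control samples (shCtrl) and 3 samples in which AC007128.1 was targeted (shAC007128.1), and both groups carry a hairpin on an otherwise unmodified line. The study's methods describe lentiviral delivery and puromycin selection of stable lines, whereas the labels speak of transfection. They describe 1 hairpin per group and do not say whether a line is a clone or a pool, or whether the 3 samples came from separate cultures, so p-values measure only the spread between these samples.

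In the integrated stress response, kinases that sense unfolded protein, missing amino acids, lost heme or double-stranded RNA phosphorylate the translation factor eIF2. General protein synthesis then slows, while the mRNA of ATF4 is translated better. ATF4 binds DNA together with C/EBP partners, turns on genes of amino acid supply, and induces CHOP, ATF3 and TRIB3. PPP1R15A (GADD34) closes the loop by bringing a phosphatase back to eIF2. Since ATF4 is set largely at translation, its mRNA level is not a measure of its protein.

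The sequences that define the comparison are short. The hairpin that the study made against AC007128.1 has a target arm of 19 bases, and its second arm is their reverse complement. These bases were not matched to the transcript here. On the target side, ATF4 with a C/EBP partner reads the C/EBP-ATF response element, whose core was searched here as TGATGNAA on both strands in the RefSeq promoter windows on GRCh38.p14, which run from 250 bases before to 50 bases after a transcription start. All 10 regulators matched 1 or more of 18 windows, and the core was found in 2 of these, for ATF3 and CHAC1. The other 8 regulators did not have these letters in these windows. Of all 35116 windows, 3.62% held the core. The lines below give the hairpin target, the 2 regulators and 7 further genes described in the results, in lower case with the core in capitals and 11 bases on either side. A reverse-complement core reads TTNCATCA.
shAC007128.1 hairpin target: ccacaagtcctggcacatt
ATF3, chr1:212565205-212565234, plus strand: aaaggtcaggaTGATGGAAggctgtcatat
CHAC1, chr15:40953251-40953280, plus strand: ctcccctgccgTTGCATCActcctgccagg
ASNS, chr7:97872458-97872487, minus strand: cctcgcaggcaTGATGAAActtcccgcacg
SLC1A4, chr2:64989381-64989410, plus strand: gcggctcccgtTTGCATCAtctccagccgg
AARS1, chr16:70289675-70289704, minus strand: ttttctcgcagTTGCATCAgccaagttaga
CARS1, chr11:3057407-3057436, minus strand: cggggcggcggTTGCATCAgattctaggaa
GARS1, chr7:30594834-30594863, plus strand: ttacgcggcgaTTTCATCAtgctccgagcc
CEBPG, chr19:33374060-33374089, plus strand: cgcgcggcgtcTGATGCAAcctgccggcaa
JDP2, chr14:75427995-75428024, plus strand: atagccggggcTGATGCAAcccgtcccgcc
CHAC1 and the genes SLC1A4, AARS1 and CARS1 hold TTGCATCA, the reverse complement of the TGATGCAA of CEBPG and JDP2. Counted from the transcription start of the window that held it, the core begins at -191 for ATF3 and at -209 for CHAC1. The ATF3 stretch lies just before the annotated gene, which runs from 212565334 to 212620777. Use of that start in these cells was not tested. The CHAC1 stretch touches an exon annotated in GENCODE v44, while the ATF3 stretch touches none.

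The libraries held 55764405 to 78610457 counts, and every shCtrl library was deeper than every shAC007128.1 library. The deposited values are estimated counts that pile up at multiples of 4 where they are low, and how they relate to sequenced fragments is not given in the sources used here. The quasi-likelihood test of edgeR was run on 19254 genes, and a gene was called when its p, adjusted over all of them by Benjamini-Hochberg, was 0.05 or less and its log2 fold change was 1 or more in either direction. Levels are given as TMM-scaled CPM, the count of a gene relative to all counts of its library. The hairpin's own target, AC007128.1, was at 0.943, 0.410 and 0.781 CPM in shCtrl replicates 1, 2 and 3 and at 0.320, 0.674 and 0.258 CPM in shAC007128.1 replicates 1, 2 and 3. These groups overlapped, and a difference in AC007128.1 was not detected (log2 fold change -0.77 ± 0.51 SE, edgeR adjusted p = 0.271). The paper reports that qPCR found lower AC007128.1 RNA with its hairpin than with the control hairpin. It does not say whether that RNA came from the sequenced samples. AC007128.1 had 15 to 69 counts per sample here, too few for this test to decide whether it was reduced. Its count is also uncertain, since 398 and 384 of its 1853 exonic bases are shared with the lncRNAs ICA1-AS1 and ENSG00000272328 on the same strand. Directions below are therefore directions between the libraries labelled shAC007128.1 and shCtrl. The 10 markers of squamous epithelium had mean levels from 0.434 CPM (SOX2) to 585 CPM (KRT5) in shCtrl samples, while of the leukocyte markers MS4A1 was at 0 counts in all 6 samples and CD68 at 63.8 CPM in shCtrl.

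Of the 10 regulators, 8 fell, 1 rose, and ATF4 itself passed the limit on p but not that on fold change. Among all genes tested, 10.1% were called lower and 5.57% higher. On the adjusted p alone all 10 passed, 9 lower and 1 higher, beside 19.8% and 21% of all genes. For 9 regulators the highest shAC007128.1 value was under the lowest shCtrl value, which was the case for 28.2% of all genes, and for ATF5 the reverse held, as for 27% of all genes. The median log2 fold change of the 10 was -1.97, beside -0.02 over all genes tested. Added up, the 10 genes took 0.278 to 0.28% of all counts in shCtrl samples and 0.0725 to 0.0951% in shAC007128.1 samples. Their lowest single count was 137. All 10 passed the filter on low counts. The plot of levels by sample shows each of the 60 values.

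**Figure D1:**
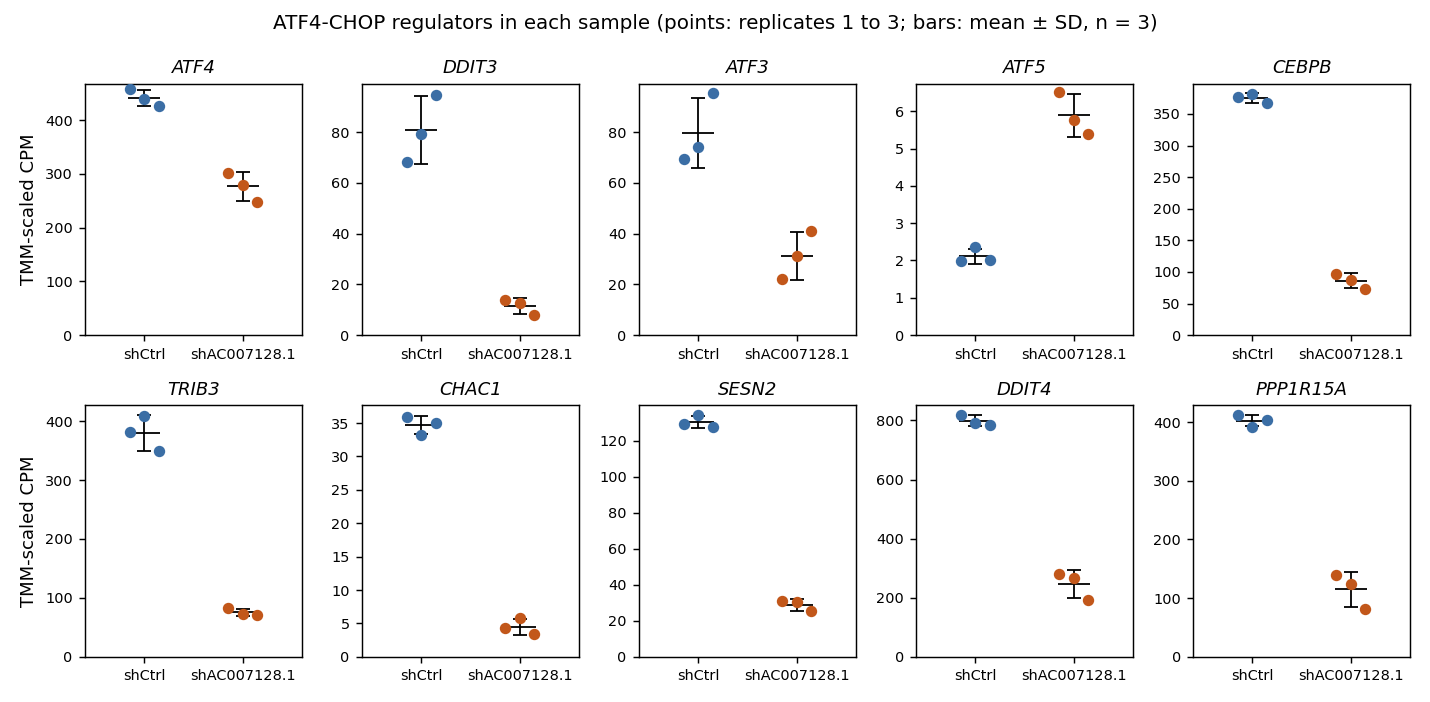
TMM-scaled CPM of the 10 regulators (y axis, from 0, its own scale in each panel) in the 3 shCtrl and 3 shAC007128.1 samples; points are replicates 1 to 3 from left to right, and bars are the mean ± SD (n = 3). In 9 panels the shAC007128.1 points lie below the shCtrl points without overlap, and in the ATF5 panel they lie above, at 5.39 to 6.51 CPM against 1.98 to 2.35.

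ATF4 (ENSG00000128272, chromosome 22, 39519695 to 39522683 on hg38), the central factor of the response, was at 457, 440 and 427 CPM in shCtrl replicates 1, 2 and 3. In shAC007128.1 replicates 1, 2 and 3 it was at 301, 280 and 248 CPM. The groups did not overlap, and the mean with the hairpin was 62.6% of control. Its log2 fold change was -0.67 ± 0.08 (SE, edgeR adjusted p = 0.000749), short of the limit of 1. Processed pseudogenes of ATF4 share its sequence, so reads could be split between them. The 4 looked up in the table (ATF4P1 to ATF4P4) were low, with 0.369 CPM as the highest value, that of ATF4P3 in shCtrl replicate 1.

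DDIT3 (ENSG00000175197, chromosome 12, 57516588 to 57521737), the gene of the pro-apoptotic factor CHOP, had the second largest fall of the 10. It was at 68.3, 79.3 and 94.8 CPM in shCtrl replicates 1, 2 and 3 and at 13.9, 12.6 and 7.88 CPM in the shAC007128.1 replicates. The mean with the hairpin was 14.2% of control (log2 fold change -2.82 ± 0.23 SE, edgeR adjusted p = 0.000143). DDIT3 shares 355 of its 1307 exonic bases with MARS1 on the opposite strand, and the use of strand in counting is not stated in the sources used here. MARS1, a methionyl-tRNA synthetase, went the same way at a smaller size (335 ± 10.2 CPM in shCtrl and 175 ± 9.3 CPM in shAC007128.1, SD, n = 3), so the DDIT3 count is uncertain to the extent that reads of MARS1 entered it.

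ATF3 (ENSG00000162772, chromosome 1, 212565334 to 212620777), a stress-induced repressor downstream of ATF4, varied most within the groups. Its levels were 69.3, 74.1 and 95.4 CPM in shCtrl and 22.0, 31.1 and 40.9 CPM in shAC007128.1. It fell with a log2 fold change of -1.35 ± 0.23 (SE, edgeR adjusted p = 0.0033). ATF3 was the only one of the 10 whose lowest shAC007128.1 sample was replicate 1. The other 9 were lowest in replicate 3, which held the lowest value of the group in 41.5% of the 12610 genes tested with a mean of at least 2 CPM.

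CEBPB (ENSG00000172216, chromosome 20, 50190830 to 50192668) encodes C/EBP beta, a dimer partner of ATF4 and CHOP. Its levels were 377, 382 and 367 CPM in shCtrl and 96.4, 87.7 and 73.0 CPM in shAC007128.1. The fall to 22.8% of control had a log2 fold change of -2.13 ± 0.11 (SE, edgeR adjusted p = 2.96e-05). Its antisense lncRNA CEBPB-AS1, which shares 231 of the 1839 exonic bases, was at 0.896 ± 0.208 CPM in shCtrl and 0.196 ± 0.0672 CPM in shAC007128.1 samples (SD, n = 3), from at most 91 counts per sample beside 4246 to 30711 for CEBPB.

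ATF5 (ENSG00000169136, chromosome 19, 49928702 to 49933935), a close relative of ATF4, was the member that rose. Its levels were 1.98, 2.35 and 2.02 CPM in shCtrl and 6.51, 5.77 and 5.39 CPM in shAC007128.1. The log2 fold change was 1.47 ± 0.17 (SE, edgeR adjusted p = 0.000574), from counts of 137 to 189 per shCtrl sample and 313 to 366 per shAC007128.1 sample. ATF5 shares 565 of its 2892 exonic bases with NUP62 on the opposite strand. NUP62, a nuclear pore gene, was at 80.5 ± 16.3 CPM in shCtrl and 75.8 ± 17.3 CPM in shAC007128.1 (SD, n = 3), from 3283 to 7258 counts per sample. A difference in NUP62 was not detected (log2 fold change -0.09 ± 0.20 SE, edgeR adjusted p = 0.765). The level of ATF5 is uncertain where reads of NUP62 were counted to it.

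TRIB3 (ENSG00000101255, chromosome 20, 362835 to 397559), a pseudokinase that is induced by ATF4 and CHOP and restrains them, had the smallest adjusted p of the 10. It was at 381, 409 and 349 CPM in shCtrl and at 82.4, 72.4 and 71.5 CPM in shAC007128.1, which is 19.9% of control. Its log2 fold change was -2.33 ± 0.09 (SE, edgeR adjusted p = 1.6e-05). The other two tribbles genes did not share this size of change. TRIB1 was at 24.2 ± 1.18 and 20.2 ± 0.841 CPM (SD, n = 3) in shCtrl and shAC007128.1, and TRIB2 was higher with the hairpin at 4.82 ± 0.382 CPM against 2.90 ± 0.174. Neither was called, and the log2 fold change of TRIB2 was 0.74 (standard error 0.16, edgeR adjusted p = 0.00897).

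CHAC1 (ENSG00000128965, chromosome 15, 40952962 to 40956512) encodes an enzyme that breaks down glutathione and had the largest fall of the 10. It was at 35.8, 33.2 and 34.9 CPM in shCtrl and at 4.25, 5.84 and 3.46 CPM in shAC007128.1. The mean with the hairpin was 13% of control (log2 fold change -2.94 ± 0.20 SE, edgeR adjusted p = 6.58e-05). Within shCtrl its coefficient of variation was 3.92%, and within shAC007128.1 it was 26.9%.

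SESN2 (ENSG00000130766, chromosome 1, 28259518 to 28282491), a leucine-responsive brake on mTORC1, fell to 22.2% of control. Its levels were 129, 134 and 128 CPM in shCtrl and 31.3, 30.3 and 25.2 CPM in shAC007128.1 (log2 fold change -2.17 ± 0.10 SE, edgeR adjusted p = 2.37e-05). The sestrin genes did not move together. SESN3 rose from 2.11 ± 0.464 to 5.73 ± 0.892 CPM (SD, n = 3; log2 fold change 1.44 ± 0.22 SE, edgeR adjusted p = 0.002). SESN1 was at 10.6 and 17.6 CPM and was not called, with a log2 fold change of 0.74 ± 0.14 (SE, edgeR adjusted p = 0.00546).

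DDIT4 (ENSG00000168209, chromosome 10, 72273919 to 72276036), the gene of REDD1, which also restrains mTORC1, fell as well. It was at 820, 793 and 784 CPM in shCtrl and at 282, 268 and 193 CPM in shAC007128.1 (31% of control, log2 fold change -1.69 ± 0.14 SE, edgeR adjusted p = 0.00014). A list of 20 genes around mTORC1, of which 19 were tested, had a median log2 fold change of 0.31. It held brakes and amino acid sensing genes, but also parts of the complex, such as MTOR and RPTOR, and its activator RHEB. Of the 19, 1 (SESN3) was called higher and 0 lower by edgeR. Without the limit on fold change 6 and 3 passed the adjusted p, beside 21% and 19.8% of all genes. The 6 were the sestrin genes SESN3 (1.44) and SESN1 (0.74), MTOR (0.36), RPTOR (0.68), RHEB (0.33) and WDR59 (0.31). The 3 were the brakes NPRL2 (-0.72) and NPRL3 (-0.63), and WDR24 (-0.61). All but SESN3 are named here after their values were seen. At an unadjusted p under 0.05 there were 3 lower and 8 higher, and DESeq2 and limma-voom each called 0 lower.

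PPP1R15A (ENSG00000087074, chromosome 19, 48872212 to 48876059), the stress-induced subunit that directs protein phosphatase 1 to eIF2, fell to 28.5% of control. It was at 412, 392 and 403 CPM in shCtrl and at 139, 124 and 81.8 CPM in shAC007128.1 (log2 fold change -1.81 ± 0.18 SE, edgeR adjusted p = 0.000322). Its constitutive relative PPP1R15B was at 68.2 ± 0.281 and 86 ± 7.62 CPM (SD, n = 3). That was a log2 fold change of 0.33 in the other direction (edgeR adjusted p = 0.0188), short of the limit on fold change. Of the catalytic subunits PPP1CA, PPP1CB and PPP1CC, named here after their values were seen, none was called. Their log2 fold changes were 0.30, -0.51 and 0.90, with edgeR adjusted p of 0.097, 0.0145 and 0.000845.

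**Figure D2:**
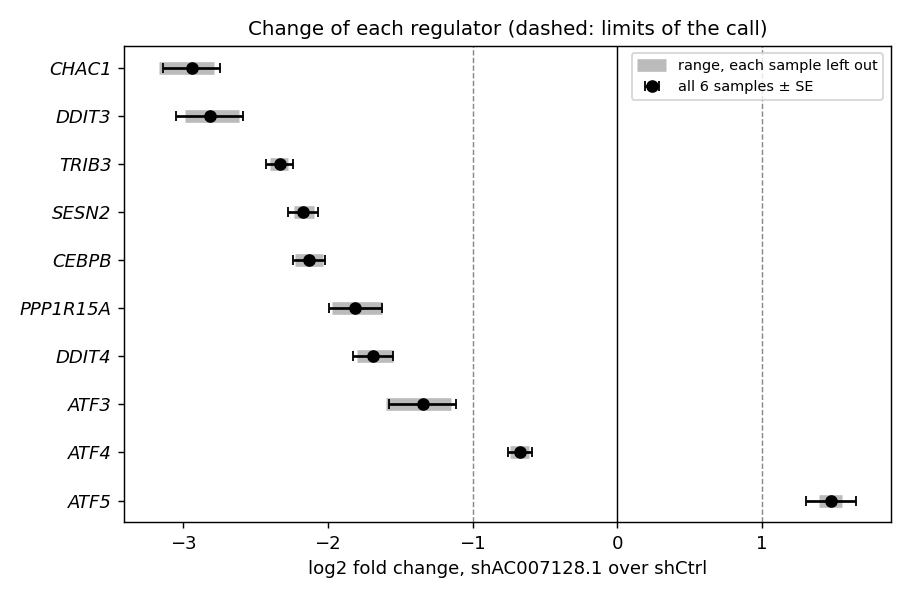
Log2 fold change (x axis, shAC007128.1 over shCtrl) of the 10 regulators; points with bars are the edgeR estimate from all 6 samples ± its standard error, grey bands span the estimates with each sample left out in turn, and dashed lines mark the limits of 1 in size. CHAC1 and DDIT3 have the largest falls, ATF4 lies between the dashed lines, and ATF5 lies to the right of the upper one.

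Measured relative to ATF4 in the same sample, which cancels any scaling of a whole library, 7 of the 9 other regulators were lower in every shAC007128.1 than in every shCtrl sample. Among all genes tested 9.85% had a ratio to ATF4 that was lower in this way, and 55.8% had one that was higher. The ratio of CHAC1 to ATF4 was 2.29 lower on the log2 scale (difference -2.29), that of DDIT3 differed by -2.17 and that of DDIT4 by -1.03. For ATF5 the ratio was higher by 2.15. ATF3 overlapped, with log2 ratios of -2.72, -2.57 and -2.16 in shCtrl and -3.78, -3.17 and -2.60 in shAC007128.1. The two-sided exact permutation p was 0.2 for ATF3 and 0.1 for the other 8, where 0.1 is the smallest that 3 samples against 3 allow, and 0.112 for those 8 after adjustment over the 9 ratios. The separation shows in the plot of ratios to ATF4.

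**Figure D3:**
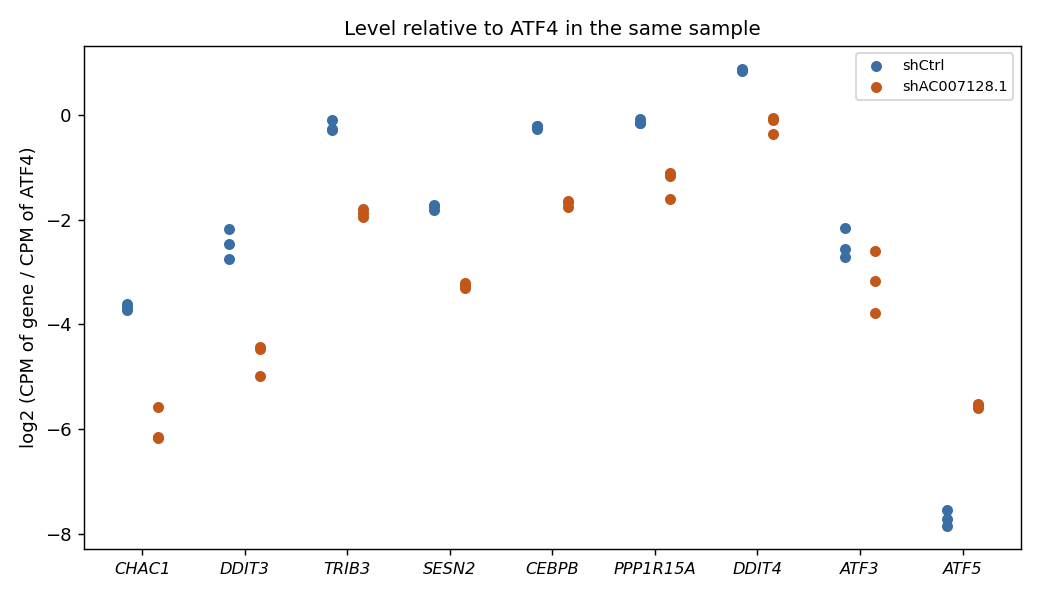
Log2 ratio of the CPM of each of 9 regulators to that of ATF4 in the same sample (y axis), for the 3 shCtrl samples (left of each pair) and the 3 shAC007128.1 samples (right of each pair). The points of ATF3 overlap, those of ATF5 are higher with the hairpin, and those of the other 7 are lower, most for CHAC1 at -2.29 and DDIT3 at -2.17.

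Per kilobase of exonic sequence, so that genes can be compared, DDIT4 had the highest level in shCtrl samples at 377 ± 8.77 CPM per kilobase (SD, n = 3). CEBPB at 204 ± 3.96 and ATF4 at 169 ± 5.85 CPM per kilobase came next. PPP1R15A (117 ± 2.83) and TRIB3 (115 ± 9.17) followed and overlapped each other on this scale. Below them lay DDIT3 (61.8 ± 10.2), SESN2 (37.7 ± 0.964), ATF3 (19.9 ± 3.47) and CHAC1 (16.9 ± 0.663 CPM per kilobase), of which ATF3 and CHAC1 overlapped. ATF5 was lowest at 0.732 ± 0.07 CPM per kilobase. In shAC007128.1 samples DDIT4 (117 ± 22.7) and ATF4 (106 ± 10.2 CPM per kilobase) overlapped at the top, and CHAC1 (2.20 ± 0.593) and ATF5 (2.04 ± 0.198 CPM per kilobase) overlapped at the bottom. With the length of the longest transcript in place of all exons, ATF4 stood above CEBPB in shCtrl samples, at 219 against 204 CPM per kilobase. With that length TRIB3 (161) no longer overlapped PPP1R15A (124), ATF3 (37.9) overlapped SESN2 (37.7), and in shAC007128.1 samples ATF4 (137) ranked before DDIT4 (126 CPM per kilobase).

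The spread between replicates was wider with the hairpin. All 10 regulators had a larger coefficient of variation in shAC007128.1 than in shCtrl, at 7.98 to 30.2% against 1.94 to 17.4%. This was also so for 72.9% of the 12610 genes tested with a mean of at least 2 CPM, whose medians were 11.8% and 6.04%. Across the 6 samples the log2 CPM of ATF4 followed most closely those of PCBP4, AKR1A1 and PFDN2 among 11948 genes outside the lists (Pearson's r from 0.999 to 1). For DDIT3 the closest were MIB2, CDH24 and MAILR (r = 0.999 each). The 6 samples form 2 groups, so such values mostly restate the difference between the groups, and 1197 genes exceeded an r of 0.95 with ATF4.

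A list of 20 genes that act on or around eIF2 had no called gene. It held 12 genes of the eIF2 kinases, eIF2 and its exchange factor eIF2B, and 8 others, namely PPP1R15B, PPP1CA, PPP1CB, PPP1CC, DNAJC3, DELE1, OMA1 and GCN1. Of the 20 tested, edgeR called 0 in either direction, and the median log2 fold change was -0.04. At the adjusted p alone 5 were lower and 4 higher (2 and 2 of them among the 12), beside 19.8% and 21% of all genes. At an unadjusted p under 0.05 there were 7 lower and 7 higher, and DESeq2 and limma-voom each called 0. DNAJC3, an inhibitor of the eIF2 kinases named here after its values were seen, was next to the limit at -0.99 on the log2 scale. The eIF2 subunits EIF2S3 (518 ± 15.5 and 347 ± 33 CPM, SD, n = 3) and EIF2S2 (452 ± 13.4 and 371 ± 21.8 CPM) had log2 fold changes of -0.58 and -0.29. The remaining subunit, EIF2S1 (172 ± 1.86 and 198 ± 19.4 CPM), was at 0.20 (edgeR adjusted p = 0.0937). Of the exchange factor, EIF2B4 was at 0.62 (edgeR adjusted p = 0.00381). EIF2S1 and EIF2B4 are named here after their values were seen. Among the kinases, whose genes are named here after their values were seen, EIF2AK3 (PERK) was at -0.26, EIF2AK4 (GCN2) at 0.22, EIF2AK1 (HRI) at -0.15 and EIF2AK2 (PKR) at 0.54 on the log2 scale. These are mRNA levels, and the phosphorylation of eIF2 was not measured here.

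Downstream, genes of amino acid synthesis and uptake that are known targets of ATF4 were among those that fell. Of 20 tested, 11 were called lower and 0 higher, with a median log2 fold change of -1.11, and 0 were higher at an unadjusted p under 0.05 or by DESeq2. ASNS, which makes asparagine, fell from 345 ± 11.1 to 57.5 ± 4.54 CPM (SD, n = 3; log2 fold change -2.58, edgeR adjusted p = 1.16e-05). About 49.3% of its exonic bases also belong to an unnamed lncRNA on the same strand, so its count is uncertain. PCK2, the mitochondrial PEPCK, fell from 113 ± 4.21 to 18.2 ± 1.63 CPM. The leucine transporter gene SLC7A5 fell from 3394 ± 72.4 to 951 ± 57.8 CPM and the serine and alanine transporter gene SLC1A4 from 119 ± 1.3 to 31.1 ± 0.359 CPM.

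The tRNA synthetase genes and the tRNA exporter gene XPOT had a smaller median change. All 13 had a negative log2 fold change, with a median of -0.86, and 4 were called lower. These were AARS1 (-1.57), CARS1 (-1.39), SARS1 (-1.18) and GARS1 (-1.18), which load alanine, cysteine, serine and glycine. The remaining known targets of ATF4 or CHOP were mostly lower, with a negative log2 fold change in 16 of 20 tested. Of the 20, 11 were called lower and 1 higher, with a median of -1.25. GDF15, a secreted stress cytokine, fell from 212 ± 6.53 to 14.8 ± 1.47 CPM (SD, n = 3; log2 fold change -3.84, edgeR adjusted p = 7.23e-06). STC2, a secreted glycoprotein gene, and ADM2, a peptide hormone gene, had log2 fold changes of -2.68 and -3.71. KLHL24 rose from 28.1 ± 0.956 to 59.3 ± 6.87 CPM, a call that was lost without shAC007128.1 replicate 3. FGF21 had 37, 55 and 29 counts in shCtrl replicates 1, 2 and 3 and 0 in each shAC007128.1 sample, and no fold is given for it. The death receptor gene TNFRSF10B, a target of CHOP named here after its values were seen, was lower but short of the limit on fold change. Its log2 fold change was -0.38 (edgeR adjusted p = 0.00626). On the edgeR adjusted p alone, 15 of these 20 targets were lower and 4 higher, beside 19.8% and 21% of all genes. The 4 were KLHL24, BCL2L11 (log2 fold change 0.90), VLDLR (0.83) and ERO1A (0.63). All but KLHL24 are named here after their values were seen. The values of BCL2L11 overlapped between the groups.

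Over the 3 target lists, 26 of 53 tested genes were called lower and 1 higher. Promoter windows were found for 40 of the 53, and 16 of those (40%) held the TGATGNAA core. Of the genes tested that had a window, 2.83% held it, and of those called lower 4%. These targets were listed from what is known of ATF4, which rests partly on this element, so the share describes the lists and is no separate evidence.

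**Figure D4:**
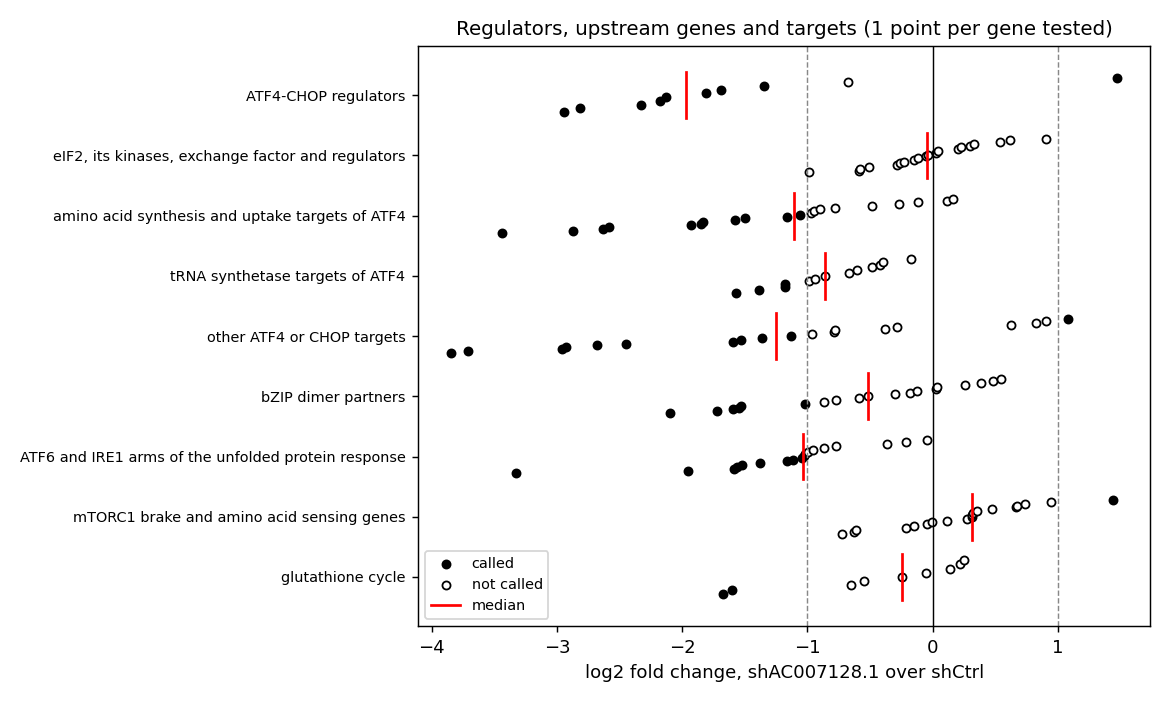
Log2 fold change (x axis, shAC007128.1 over shCtrl) of every gene tested in the 10 regulators and 8 related lists, 1 point per gene; filled points were called, open points were not, red bars are medians of the list, and dashed lines mark 1 in size. FGF21, at 0 counts in the shAC007128.1 samples, is left out of the drawing. The median is -1.97 for the regulators, -0.04 for the genes around eIF2, and -1.11 for amino acid synthesis and uptake.

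The bZIP genes that can pair with ATF4, ATF3, C/EBP beta or CHOP were mixed. Of 19 tested, 6 were called lower and 0 higher by edgeR, with a median log2 fold change of -0.52. DESeq2 also called 0 higher, and 2 were higher at an unadjusted p under 0.05. On the edgeR adjusted p alone 8 were lower and 2 higher, beside 19.8% and 21% of all genes. The 2 were CEBPD (0.55) and ATF7 (0.48), named here after their values were seen. CEBPG, a dimer partner of ATF4, fell from 206 ± 4.95 to 71.3 ± 7.88 CPM (SD, n = 3; log2 fold change -1.53, edgeR adjusted p = 4.89e-05). JDP2, FOS and FOSB, of the AP-1 group, had log2 fold changes of -1.60, -2.10 and -1.72. CEBPG and JDP2 also stand in the list of other ATF4 or CHOP targets above, so their calls count in both lists. The ATF6 and IRE1 arms of the unfolded protein response were lower as well, with 11 of 18 tested genes called lower by edgeR, 0 higher (also at an unadjusted p under 0.05 and by DESeq2) and a median of -1.04. The ER chaperone gene HSPA5 (BiP), fell from 8929 ± 147 to 891 ± 40.9 CPM. PDIA4, SEL1L and HYOU1 had log2 fold changes of -1.56, -1.52 and -1.59. In the glutathione cycle, which CHAC1 serves, 2 of 9 tested genes were called lower: GCLC, the rate-limiting step of synthesis (-1.68), and OPLAH, which recycles oxoproline (-1.60). The relative CHAC2 was not called (log2 fold change 0.22).

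Levels of other gene groups moved with the same comparison, and their part in the results was not tested. The summed level of 10 squamous epithelial markers was 2016 to 2054 CPM in shCtrl and 3145 to 3652 CPM in shAC007128.1, with 4 genes called higher (PERP, KRT6A, KRT14 and SOX2) and DSG3 lower. The 6 fibroblast markers summed to 15.2 to 16.1 and 20.9 to 23.9 CPM, with LUM called higher and PDGFRB lower, the latter at an edgeR adjusted p of 0.0474. The 6 leukocyte markers summed to 59.3 to 68.3 and 14.7 to 24 CPM, and the 1 gene called was CD68 (63.8 and 17.5 CPM, lower), which shares 81.6% of its exonic bases with a lncRNA on the same strand. The 4 endothelial markers summed to 2.12 to 3.11 and 0.303 to 2.02 CPM, with none called by edgeR, 1 lower at an unadjusted p under 0.05 and 1 lower by DESeq2. Library depth also went with the groups, and the design has 1 hairpin and 1 control, so the hairpin and anything else that differed between these 2 sets of cultures cannot be told apart.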

How the data were processed

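The authors isolated poly-A RNA, prepared paired-end TruSeq libraries, filtered the reads (rRNA, adapters, low quality), and aligned them to hg38 (TopHat2 2.0.6 in the submitters' processing notes, while the methods name another TopHat release, and the notes list mm10 beside GRCh38). The deposited table, made by the authors, holds estimated counts per Ensembl gene as whole numbers without normalization; the counting program, annotation release and strand setting are not given in the sources used here. Gene names, positions and lengths came from GENCODE v44, which held 60357 of the 67140 identifiers. Samples were grouped by their titles, and 0 sample columns were left unmapped.

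Genes were filtered with filterByExpr (47886 identifiers removed), scaled with TMM, then tested in R 4.3.3 by edgeR 4.0.16 (glmQLFit, glmQLFTest, no covariates). The SE was taken as the size of the log2 fold change over the square root of F. On simulated counts for this comparison, with 200 changed genes of which 188 were among the 18579 tested, edgeR called 152 of them and 14 unchanged genes. Ratios were tested with SciPy 1.17.1. Alternatives used DESeq2 1.42.0, limma 3.58.1, other scaling, filters and thresholds, counts divided by 4, a replicate block and each sample left out. The regulators, lists and alternatives were chosen with earlier results of these data known. Genes named are the 10 regulators, AC007128.1, up to 4 called genes in each direction of each list by smallest p (or the 2 most abundant where none was called), the tribbles genes and the 3 genes most like ATF4 and DDIT3. MARS1 and NUP62, which share exons with DDIT3 and ATF5, were added, and the ATF4 pseudogenes, eIF2 kinases, PPP1 subunits, DNAJC3, TNFRSF10B, SESN1, PPP1R15B, CHAC2, CEBPB-AS1, KRT5, MS4A1 and FGF21 were named after their values were seen. The same holds for MTOR, RPTOR, RHEB, WDR59, NPRL2, NPRL3, WDR24, BCL2L11, VLDLR, ERO1A, EIF2S1, EIF2B4, CEBPD and ATF7.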

Additional observations from a re-analysis of the deposited data

How the results depend on the processing

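Over 16 alternatives, 8 regulators were called lower and 1 higher in each, except that 9 were lower with no limit on the fold change, where ATF4 joined them. Each of the 10 kept its direction and its side of the threshold in all 14 refits. Leaving out each sample in turn, the log2 fold changes spanned -0.74 to -0.61 for ATF4, -2.99 to -2.62 for DDIT3, -1.60 to -1.15 for ATF3 and 1.39 to 1.55 for ATF5, and the largest edgeR adjusted p of a regulator was 0.0171, for ATF3. Adding the replicate number as a block, the counts over all genes were 977 higher and 1692 lower, beside 1073 and 1945 without it, and no regulator changed its call. Same-numbered samples deviated from their group means with correlations of 0.0306, -0.0254 and -0.0299, so the numbers were not taken to pair the samples. With no limit on the fold change 4041 genes were higher and 3820 lower. That setting also gave 11 lower tRNA synthetase genes in place of 4 (7 with glmTreat against a fold of 1.5), 5 lower and 4 higher genes around eIF2 in place of 0 and 0, 6 higher and 3 lower mTORC1 genes in place of 1 and 0, 2 higher bZIP genes in place of 0, 4 higher other targets in place of 1, 1 higher tribbles gene in place of 0 and 7 higher squamous markers in place of 4. At most 1 gene around eIF2 was called in each direction under any other setting. The higher call among the other targets, KLHL24, was lost without shAC007128.1 replicate 3, and a second appeared without replicate 1. Among mTORC1 genes 2 were higher when shCtrl replicates 1 or 3, or the first shAC007128.1 replicate, were left out, and 1 gene around eIF2 was lower without replicate 3 of either group. The PDGFRB call was lost in all leave-outs but that of shAC007128.1 replicate 2, and with limma-voom, no filter, 10 counts in every sample, the replicate block, glmTreat and counts divided by 4, while 1 or 2 endothelial markers were lower without shCtrl replicate 2 or any 1 shAC007128.1 sample, and 1 was with DESeq2, limma-voom, no filter and the block. AC007128.1 was low in every sample, and its log2 fold change spanned -1.29 to -0.51 with each sample left out.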
